A study of Mus musculus with 18 samples.

Results

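Markers of B cells, T cells and cytotoxic lymphocytes were followed in the liver of mice given asparaginase (ASNase), an enzyme that breaks down asparagine and glutamine in blood and is used against leukaemia of lymphoblasts. The markers are 9 of the 37303 genes in the expression table and were chosen by gene name, *Cd79a*, *Cd79b*, *Ms4a1*, *Cd3d*, *Cd3e*, *Cd4*, *Cd8a*, *Nkg7* and *Ptprc*. All 9 were found, and each had a usable estimate in all 6 groups. RNA-Seq of polyadenylated RNA had been carried out on liver of 18 mice on the C57BL/6J background, 3 per group. They were wild type (WT), homozygous for a deletion of *Gcn2* (*Gcn2*-/-), whose kinase senses amino acid shortage, or homozygous for a deletion of *Atf4* (*Atf4*-/-), a transcription factor made when that kinase is active. Both deletions are of the whole body, so lymphocytes and other blood cells carried them as well as hepatocytes. Mice of each strain were injected into the peritoneum with L-asparaginase (Elspar), at 3 IU per gram, or with the same volume of phosphate buffered saline (PBS), on 8 days, and liver was taken 7.5 h after an injection. Ages are given as 8 to 16 weeks with the samples and as up to 12 weeks in the description of the study. Males were 1 of 3 mice in WT PBS, *Gcn2*-/- PBS and *Gcn2*-/- ASNase and 2 of 3 in WT ASNase, *Atf4*-/- PBS and *Atf4*-/- ASNase.

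The products of these genes mark the main classes of lymphocytes. CD79A and CD79B, encoded by *Cd79a* and *Cd79b*, are the signalling chains of the B cell receptor, and *Ms4a1* encodes CD20, a membrane protein of B cells. *Cd3d* and *Cd3e* encode chains of the CD3 complex, through which the T cell receptor signals. *Cd4* and *Cd8a* encode the coreceptors of helper and of cytotoxic T cells, CD4 being found on some macrophages and dendritic cells too. *Nkg7* encodes a granule protein of natural killer cells and cytotoxic T cells. *Ptprc* encodes CD45, a phosphatase carried by nearly all nucleated blood cells, resident macrophages of the liver included.

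The values are FPKM, fragments counted per length of transcript and per depth of library, and the table holds 1 value per group with the lower and upper bound of an interval from Cuffdiff. It holds no value per mouse, so no test over mice was possible and no p-value is given. A gene was called in a comparison when its FPKM was over 3 in either group, its difference of log2(FPKM + 0.1) was over 1.5 and its intervals did not overlap. Folds of low genes are understated on that log2 scale. Only 1 of the 54 values of the markers was over an FPKM of 3, that of *Ptprc* in *Atf4*-/- PBS, and most of their intervals were wide, so the values themselves are described below. In bulk liver, fewer cells of a type cannot be told apart from less RNA per cell.

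In GENCODE annotation of GRCm38 (mm10) all 9 are protein-coding genes. *Cd79a* lies at chr7:24897381-24902197 on the plus strand, *Cd79b* at chr11:106311341-106314762 on the minus strand and *Ms4a1* at chr19:11249675-11266241 on the minus strand. *Cd3d* lies at chr9:44981786-44987339 on the plus strand and *Cd3e* at chr9:44998740-45009627 on the minus strand, with 11400 bases between them. *Cd4* lies at chr6:124864692-124888221 on the minus strand, *Cd8a* at chr6:71373427-71379173 and *Nkg7* at chr7:43437073-43438249, both on the plus strand, and *Ptprc* at chr1:138062861-138175708 on the minus strand. FPKM is a value over the whole gene, exons joined.

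Promoters of the markers were searched for short motifs because most of these genes had like patterns over the groups. RefSeq windows of 250 bases before the transcript start (GRCm38.p6) were held for 6 of the 9 markers, in 7 windows, and there was no entry for *Cd79b*, *Ms4a1* and *Cd4*. Both strands were searched for the core bound by ETS factors, written AGGAAG. For E-box proteins, which include regulators of early B and T cells, the letters were CAGGTG. The site of RUNX factors, which act in cytotoxic T cells among others, was searched as TGTGGT in the same way. For GATA factors, among them the T cell regulator GATA3, the letters were AGATAA. The octamer of immunoglobulin promoters was searched as ATGCAAAT. The element shared by C/EBP and ATF factors, through which ATF4 acts, was searched as TGATGNAA, and the palindrome bound by EBF, a regulator of B cells, was added. Stretches that lie before the start of the gene in GENCODE as well are shown for 4 markers of the B cell, T cell and cytotoxic classes, 5′ to 3′ on the strand of the gene, with every match to a searched motif in capitals. They come from chr7:24897247-24897380 for *Cd79a*, chr9:44981536-44981785 for *Cd3d*, chr9:45009628-45009861 for *Cd3e*, the last on the minus strand, and chr7:43436888-43437072 for *Nkg7*.
Cd79a: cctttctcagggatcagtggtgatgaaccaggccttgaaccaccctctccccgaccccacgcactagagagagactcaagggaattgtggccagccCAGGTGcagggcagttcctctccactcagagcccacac
Cd3d: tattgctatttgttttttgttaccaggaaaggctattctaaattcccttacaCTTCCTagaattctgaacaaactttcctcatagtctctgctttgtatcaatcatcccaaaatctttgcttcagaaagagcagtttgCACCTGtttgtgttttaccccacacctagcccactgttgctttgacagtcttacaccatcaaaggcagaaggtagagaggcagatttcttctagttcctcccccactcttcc
Cd3e: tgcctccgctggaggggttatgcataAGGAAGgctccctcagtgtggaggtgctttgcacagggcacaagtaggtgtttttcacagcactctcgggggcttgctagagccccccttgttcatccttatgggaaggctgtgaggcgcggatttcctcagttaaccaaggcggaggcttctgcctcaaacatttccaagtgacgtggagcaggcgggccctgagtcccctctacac
Nkg7: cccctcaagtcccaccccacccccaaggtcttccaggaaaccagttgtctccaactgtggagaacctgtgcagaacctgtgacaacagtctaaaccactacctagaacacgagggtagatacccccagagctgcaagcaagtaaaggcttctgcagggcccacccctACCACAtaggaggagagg

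The ETS letters were found in the windows of *Cd79a*, *Cd3d*, *Cd3e*, *Nkg7* and *Ptprc*, and in 29.5% of all 32817 promoter windows. In *Cd79a* the match lay at bases -55 to -50 from the RefSeq start and in *Nkg7* at -34 to -29, both inside the GENCODE gene and so past the end of the stretch shown. *Cd3d* had its match at -198 to -193, and *Cd3e* had matches at -224 to -219 and at -17 to -12, the second reaching past the end of the stretch shown. The E-box letters were found in *Cd79a* and *Cd3d* and in 17.2% of all windows. RUNX letters were found in *Nkg7* and in 14.0% of all windows, and GATA letters in 1 of the 2 windows of *Ptprc* and in 9.99%. No marker window held the octamer, the EBF palindrome or the C/EBP and ATF element, which were in 1.60%, 0.780% and 3.45% of all windows, and the window of *Cd8a* held none of the letters searched. None of the motifs overlapped another in these windows, and a match is a description of the letters only.

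B cell markers were lower in ASNase livers of every strain. *Cd79a* had an FPKM of 0.974 in WT PBS and 0.220 in WT ASNase, 0.683 and 0.137 in the *Gcn2*-/- pair, and 1.06 and 0.127 in the *Atf4*-/- pair. All 3 PBS groups were above all 3 ASNase groups, with PBS levels 4.43, 4.99 and 8.34 times the ASNase levels in WT, *Gcn2*-/- and *Atf4*-/- livers. The intervals overlapped in each strain, as with 0.189 to 1.76 against 0 to 0.454 in WT.

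*Cd79b* had an FPKM of 1.49 in WT PBS and 0.450 in WT ASNase, 0.955 and 0.279 in the *Gcn2*-/- pair, and 1.13 and 0.0820 in the *Atf4*-/- pair. Again each PBS group was above each ASNase group, and the PBS level was 3.31, 3.42 and 13.8 times the ASNase level in the order of strains above. In *Atf4*-/- livers the intervals were separate, 0.264 to 1.998 with PBS against 0 to 0.224 with ASNase, and this was the only pair of separate intervals among the 9 markers in the 3 strains. *Ms4a1*, lower than both throughout, had 0.503 and 0.116 in WT, 0.242 and 0.0743 in *Gcn2*-/- and 0.334 and 0.0252 in *Atf4*-/- livers. Its 6 levels followed the same order as those of *Cd79b*, from WT PBS down to *Atf4*-/- ASNase.

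The 3 B cell markers summed to an FPKM of 2.97 in WT PBS, 1.88 in *Gcn2*-/- PBS and 2.52 in *Atf4*-/- PBS, and to 0.786, 0.491 and 0.234 in the matching ASNase groups. Their log2 differences, ASNase minus PBS, were -1.75, -1.72 and -2.35 for *Cd79a* in WT, *Gcn2*-/- and *Atf4*-/- livers. For *Cd79b* they were -1.53, -1.48 and -2.76, and for *Ms4a1* -1.48, -0.97 and -1.79. The error of such a difference, the root of the summed squared interval errors on the log2 scale, was 1.82 for *Cd79a* in WT and 1.52 for *Cd79b* in *Atf4*-/- livers.

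T cell markers were also lower in ASNase livers of every strain. Their log2 differences were smaller than those of *Cd79a* in each, but the pseudocount shrinks the differences of such low genes most. *Cd3d* had an FPKM of 0.367 in WT PBS and 0.0942 in WT ASNase, 0.264 and 0.0609 in *Gcn2*-/-, and 0.270 and 0.0586 in *Atf4*-/- livers. The PBS level was 3.90, 4.33 and 4.61 times the ASNase level, so the ratio lay in a narrow range over the strains. *Cd3e* had 0.323 and 0.191 in WT, 0.214 and 0.0724 in *Gcn2*-/-, and 0.404 and 0.0683 in *Atf4*-/- livers. Its WT ASNase level was thus close to that of *Gcn2*-/- PBS, and its intervals overlapped in all strains.

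The coreceptors of T cells lay at quite different levels. *Cd4* had an FPKM of 0.498 in WT PBS, 0.528 in *Gcn2*-/- PBS and 0.485 in *Atf4*-/- PBS, and of 0.227, 0.237 and 0.237 after ASNase. These levels hardly differed between strains, while each of the 6 intervals reached 0 and the widest ran to 1.37. *Cd8a* was the lowest of the markers, with 0.0954 and 0.0472 in WT, 0.0462 and 0.00421 in *Gcn2*-/- and 0.0999 and 0.00856 in *Atf4*-/- livers. All its intervals reached 0 too, and the pseudocount of 0.1 is above each of these values, so its log2 differences of -0.41, -0.49 and -0.88 understate its ratios most. Its PBS level was 2.02, 11.0 and 11.7 times the ASNase level in WT, *Gcn2*-/- and *Atf4*-/- livers. In both knockouts that ratio, from values near 0, was above the ratio of *Cd79a*.

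*Nkg7*, the cytotoxic marker, had an FPKM of 0.985 in WT PBS and 0.335 in WT ASNase, 0.486 and 0.0835 in the *Gcn2*-/- pair, and 0.583 and 0.137 in the *Atf4*-/- pair. The PBS level was 2.94, 5.83 and 4.25 times the ASNase level. WT PBS was the highest group, with an interval of 0.156 to 1.81 that was the only *Nkg7* interval not to reach 0.

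*Ptprc*, carried by nearly all leukocytes, went the same way as the lymphocyte markers in WT and *Atf4*-/- livers but not in *Gcn2*-/- livers. Its FPKM was 2.42 and 1.73 in WT, 1.95 and 2.26 in *Gcn2*-/- and 3.20 and 1.37 in *Atf4*-/- livers. It was lower after ASNase in WT and *Atf4*-/- livers and higher in *Gcn2*-/- livers, with log2 differences of -0.46 in WT, 0.20 in *Gcn2*-/- and -1.16 in *Atf4*-/- livers. The error of the difference in *Gcn2*-/- livers was 0.97. The intervals overlapped each time, closest to separation in *Atf4*-/- livers with 1.78 to 4.61 in PBS and 0.686 to 2.06 in ASNase livers. It was the only marker whose 6 intervals all stayed above 0.

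**Figure D1:**
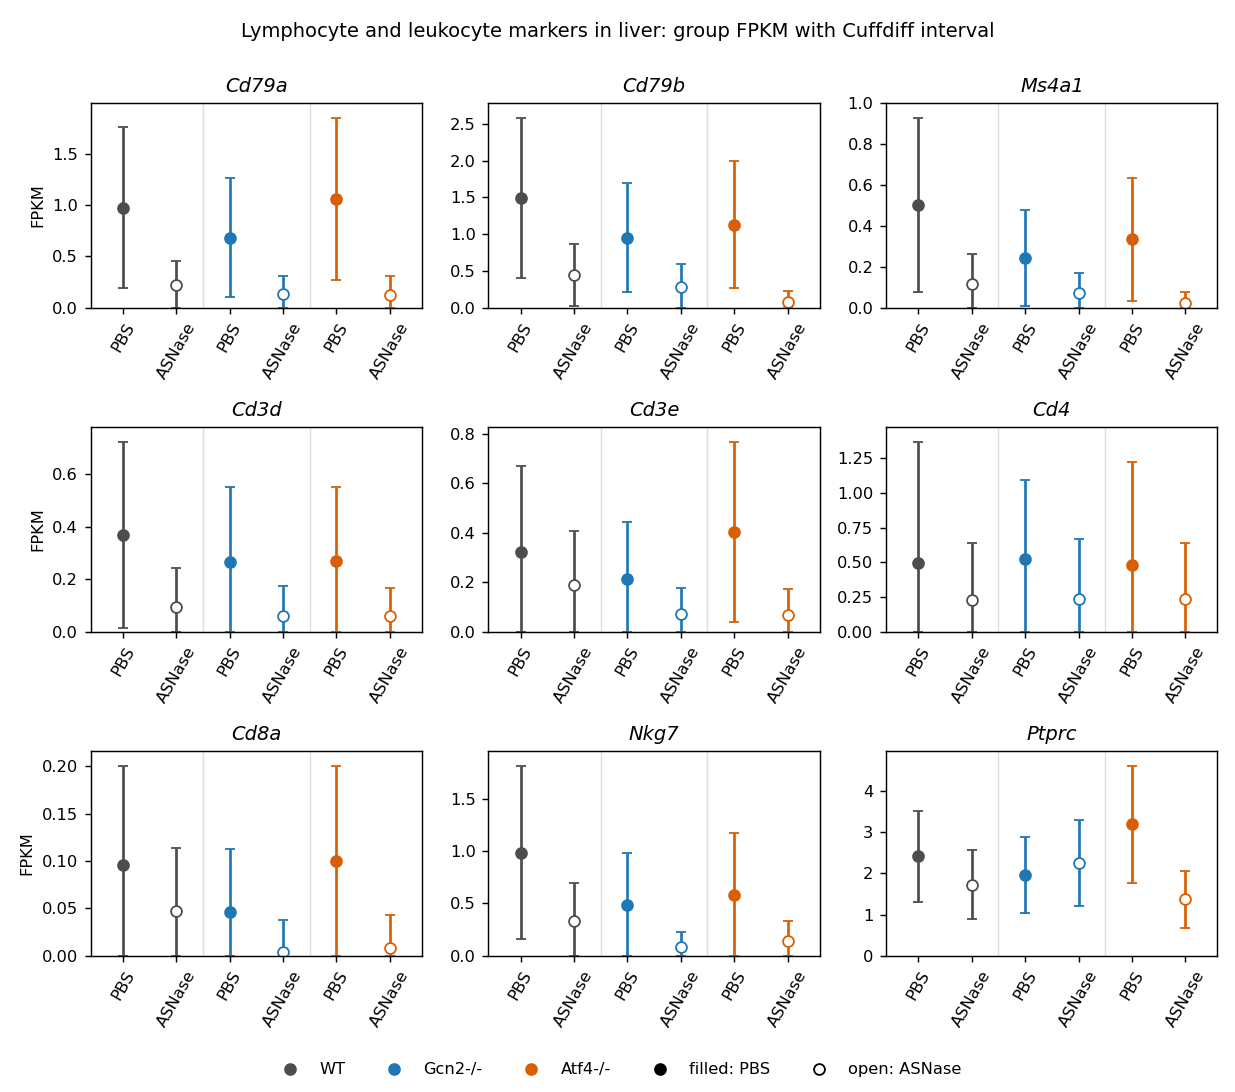
FPKM of the 9 markers (y axis, from 0, a scale of its own for each gene) in the 6 groups (x axis), with PBS as filled and ASNase as open points, and bars for the interval that Cuffdiff gave for the group of 3 mice. PBS points lie above the ASNase points of the same strain in all panels except that of Ptprc in Gcn2-/- livers, where 1.95 under PBS compares with 2.26 after ASNase, and most bars overlap.

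Over all 9 markers, ASNase values were lower than PBS values for 9 in WT, 8 in *Gcn2*-/- and 9 in *Atf4*-/- livers. The median log2 difference of the markers was -1.27, -0.97 and -1.53. Over all genes tested, 47.3%, 48.4% and 48.3% were lower after ASNase, with a median of 0.02 in each strain. Among genes of the same level as the markers, 0.0502 to 2.15 FPKM on average over the groups, 43.4%, 47.3% and 50.9% were lower, with medians of 0.07, 0.04 and -0.02. Log2 differences under -1 were held by 5 of 9 markers in WT, 4 in *Gcn2*-/- and 7 in *Atf4*-/- livers, and by 2.57%, 6.9% and 11.5% of the genes of that level. These counts depend on the pseudocount. With a pseudocount of 1 no marker was under -1, the lowest being *Cd79b* in *Atf4*-/- livers at -0.98.

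The FPKM limit left 0 markers eligible for a call between ASNase and PBS in WT and *Gcn2*-/- livers. In *Atf4*-/- livers it left 1, *Ptprc*, which was not called, so the lack of calls says little about the markers. Of eligible genes, 0.881% were called in WT, 3.69% in *Gcn2*-/- and 7.37% in *Atf4*-/- livers. Separate intervals alone were found for 0 markers in WT and in *Gcn2*-/- and for 1 in *Atf4*-/- livers, beside 0.73%, 2.63% and 4.63% of all genes with values above 0. The log2 difference was over its error for 0 markers in WT and for *Cd79a* alone in *Gcn2*-/- livers. In *Atf4*-/- livers it was over its error for *Cd79a*, *Cd79b*, *Ms4a1*, *Cd3e*, *Cd8a* and *Ptprc*, 6 of 9 markers. Over all genes the shares were 1.63%, 5.85% and 9.71%. On the FPKM scale, where the difference is set against the root of the summed squares of the interval arms, *Cd79a*, *Cd79b*, *Ms4a1* and *Ptprc* passed in *Atf4*-/- livers, as did 8.99% of all genes.

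**Figure D2:**
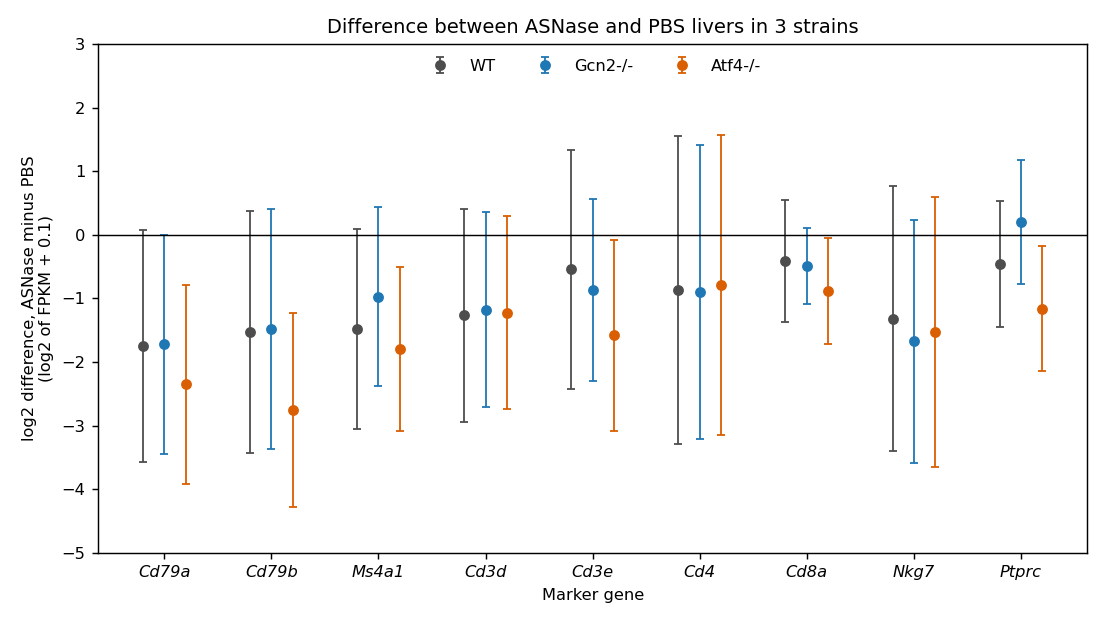
Difference of log2(FPKM + 0.1), ASNase minus PBS (y axis), for each marker (x axis) in WT, Gcn2-/- and Atf4-/- livers, with bars for the error combined from both intervals. Points lie below 0 except for Ptprc in Gcn2-/- livers at 0.20, and the bars clear 0 for 0 markers in WT, 1 in Gcn2-/- and 6 in Atf4-/- livers.

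The difference in response between strains was compared next. For *Cd79b* the log2 difference in *Atf4*-/- livers was lower than that in WT by a difference of -1.23, with an error of 2.44, and for *Cd3e* by -1.04, with an error of 2.41. *Ptprc* differed from WT by 0.66 in *Gcn2*-/- and by -0.70 in *Atf4*-/- livers, with errors of 1.39 and 1.40. In neither knockout was the difference over its error for any of the 9 markers. The medians were 0.02 in *Gcn2*-/- and -0.47 in *Atf4*-/- livers. The share of all genes over their error by that rule alone was not worked out. A call of a differing response also needed a difference over 1.5 and the FPKM limit. That limit left 0 markers eligible in *Gcn2*-/- and 1 in *Atf4*-/- livers, and no marker was called. By this stricter rule 4.48% and 6.56% of eligible genes were called. The intervals are too wide to say whether the response of the markers to ASNase differed between strains.

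Without ASNase, *Gcn2*-/- livers had lower values than WT for 8 of 9 markers, with a median log2 difference of -0.43, *Cd4* being the exception at 0.07. The widest difference was that of *Nkg7* at -0.89, followed by *Ms4a1* at -0.82. *Atf4*-/- livers had lower values for 5 markers and higher values for 4, with a median of -0.03. All intervals overlapped, where 0.878% of all genes in *Gcn2*-/- and 0.924% in *Atf4*-/- livers had separate intervals. No marker was called, but only *Ptprc* in *Atf4*-/- livers was eligible. Of eligible genes, 1.04% were called in *Gcn2*-/- and 1.12% in *Atf4*-/- livers. After ASNase, 7 of 9 markers in *Gcn2*-/- and 8 in *Atf4*-/- livers were below WT ASNase, with medians of -0.43 and -0.49, and the widest differences were -1.24 for *Nkg7* in *Gcn2*-/- and -1.59 for *Cd79b* in *Atf4*-/- livers. No marker had separate intervals there, against 3.32% and 5.36% of all genes. The FPKM limit left 0 markers eligible for a call in these 2 comparisons, where 4.41% and 8.25% of eligible genes were called. Within each marker, no neighbours in the order of the 6 levels had separate intervals.

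RNA of other tissues differed between the groups and is given here because lung and blood hold lymphocytes. Genes of lung epithelium (8 on the list) summed to an FPKM of 137 in WT PBS and to 1.84 to 3.41 in the other 5 groups. *Scgb1a1*, a secretory protein of airway cells, had 104 in WT PBS and 0.262 in WT ASNase, and *Sftpc*, a surfactant protein, had 23.1 and 0.326. Both were called lower in WT after ASNase, and WT PBS enters the WT response and both comparisons without ASNase, so the WT differences of the markers stand beside a lung signal whose part in them was not tested. In *Gcn2*-/- and *Atf4*-/- livers, where the lung sums were 1.92 and 1.95, and 1.84 and 3.41, *Cd79a* under PBS was 4.99 and 8.34 times its ASNase level, against 4.43 in WT. Genes of pancreatic acinar cells (9) summed to 344 in *Atf4*-/- ASNase, 65.5 in WT ASNase and 5.47 to 16.1 in the other groups, with *Ctrb1* and *Pnlip*, which encode digestive enzymes, called higher after ASNase in WT and *Atf4*-/- livers. Genes of skeletal muscle (10) summed to 926 and 1301 in WT, 6.02 and 9.07 in *Gcn2*-/- and 70.9 and 151 in *Atf4*-/- livers, and none of them was called between ASNase and PBS. The muscle actin *Acta1* reached the highest value of that list, 277 in WT ASNase. Of 10 hepatocyte genes 10, 9 and 8 could be compared between ASNase and PBS in WT, *Gcn2*-/- and *Atf4*-/- livers, since *Fgb* and *Serpina1a* had no usable estimate in some groups, and their median log2 difference was -0.11, -0.74 and -0.89. *Apoa1*, an apolipoprotein made by hepatocytes, lay between 2657 and 8602 FPKM in the 6 groups.

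**Figure D3:**
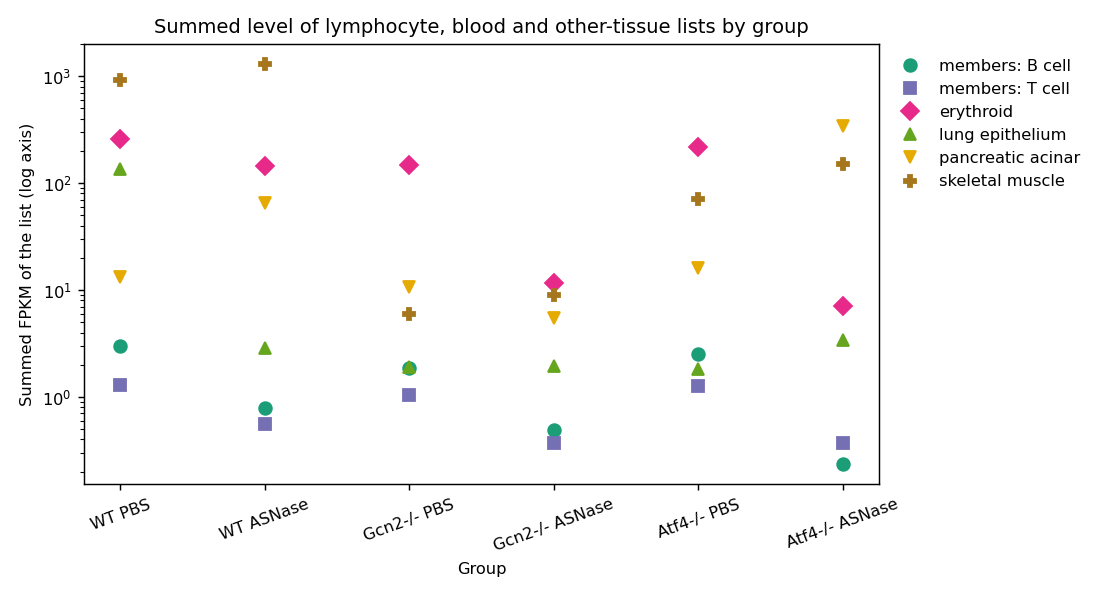
Summed FPKM (y axis, log scale) of the 3 B cell and the 4 T cell markers and of lists for red cells, lung epithelium, pancreatic acinar cells and skeletal muscle in the 6 groups (x axis). The lung sum is 137 in WT PBS and at most 3.41 elsewhere. Both marker sums are lower after ASNase in all 3 strains.

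Red cell genes were lower after ASNase in both knockouts by far more than the lymphocyte markers. The list of 6 matched genes summed to 258 and 145 in WT, 147 and 11.5 in *Gcn2*-/- and 216 and 7.05 in *Atf4*-/- livers, with medians of -0.53, -4.35 and -4.36. *Hba-a1*, *Hba-a2* and *Hbb-b1*, which encode globin chains, were called lower in both knockouts, *Hba-a1* at 31.3 and 1.24 FPKM in *Gcn2*-/- and at 43.0 and 0.791 in *Atf4*-/- livers. *Hba-a1* and *Hba-a2* are near-identical copies, so their separate values are uncertain. In WT livers none of the red cell genes was called, though 5 of 6 were lower after ASNase. The summed B cell markers there were at 2.97 under PBS and 0.786 after ASNase, and none of them was eligible for a call. The part of a change in blood or its precursors in the marker values was not tested.

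Other B cell genes were mostly lower as well. Of 20 listed genes 19 were found (*Ighd* was not matched), and 16, 17 and 19 of them were lower with ASNase than with PBS, in the order of strains above, with medians of -0.84, -0.90 and -1.25. *Ighm*, the heavy chain of IgM, had an FPKM of 12.3 and 4.88 in WT with overlapping intervals. It fell from 7.03 to 0.630 in *Gcn2*-/- and from 7.02 to 0.761 in *Atf4*-/- livers. *Igkc*, the kappa light chain constant region, fell from 28.2 to 3.79 in *Atf4*-/- livers, and had 32.8 and 18.2 in WT and 15.0 and 4.999 in *Gcn2*-/- livers. These 2 were the only genes of the list that were called between ASNase and PBS in any strain.

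Plasma cell genes gave a mixed picture. Of 10 listed, 7 were found, and of those with values above 0 in both groups 5 of 7, 3 of 5 and 5 of 6 were lower, with medians of -0.80, -0.16 and -1.07. *Derl3*, which takes part in removing misfolded proteins from the endoplasmic reticulum and is made in many secretory cells, was called higher, from 2.13 to 13.4 in *Gcn2*-/- and from 3.12 to 11.4 in *Atf4*-/- livers.

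Most other T cell genes were lower too. With 22 genes found, 17 of 21, 21 of 22 and 18 of 21 were lower, with medians of -0.53, -0.59 and -1.03. *Zap70*, the kinase that binds the phosphorylated CD3 chains, fell from 7.02 to 1.52 in *Gcn2*-/- and from 3.73 to 0.351 in *Atf4*-/- livers, and had 5.03 and 3.78 in WT with overlapping intervals. Its PBS levels were far above those of *Cd3e*, at 0.323 in WT, 0.214 in *Gcn2*-/- and 0.404 in *Atf4*-/- livers. It was highest in *Gcn2*-/- PBS, where *Cd3d* and *Cd3e* were lowest among the PBS groups. A pair of genes, chosen after their values were seen, was higher after ASNase with separate intervals at levels under the FPKM limit. *Cd28*, a costimulatory receptor, had 0.0652 under PBS and 1.27 after ASNase in *Gcn2*-/- livers, and *Trat1*, an adaptor of the T cell receptor, had 0.0758 and 2.66 in *Atf4*-/- livers.

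Natural killer and cytotoxic genes (15) were lower for 13 of 14, 13 of 14 and 12 of 13 genes with values above 0, with medians of -0.63, -0.68 and -1.18, and none was called between ASNase and PBS. The chemokine *Ccl5*, with the highest value of the list, had 4.21 and 2.23 in WT, 2.69 and 11.3 in *Gcn2*-/- and 2.36 and 1.02 in *Atf4*-/- livers. It was thus higher after ASNase in *Gcn2*-/- livers, with intervals of 0.512 to 4.88 and 4.16 to 18.4 that overlapped.

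Pan-leukocyte genes were lower in WT and *Atf4*-/- livers and higher in *Gcn2*-/- livers, as *Ptprc* was. Of 14 genes, 14 were lower in WT, 2 in *Gcn2*-/- and 11 in *Atf4*-/- livers, with medians of -0.57, 0.94 and -0.42. *Rac2*, a GTPase of blood cells, and *Itgal* and *Itgb2*, the chains of the integrin LFA-1, rose in *Gcn2*-/- livers, *Rac2* from 1.74 to 6.71. In the same livers the median of the B cell markers was -1.48 and that of the T cell markers -0.88.

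Genes of lymphocyte homing and survival (12) were lower for 12 in WT, 7 in *Gcn2*-/- and 10 in *Atf4*-/- livers, with medians of -0.75, -0.20 and -0.74. *Cxcl13*, a chemokine that attracts B cells and is made by stromal cells and macrophages, was the only gene of the list called between ASNase and PBS. It rose from 1.56 to 116 in *Gcn2*-/- and from 5.96 to 124 in *Atf4*-/- livers, and had 2.45 and 0.958 in WT. Its 2 highest levels were thus in groups where the B cell markers were lowest.

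Macrophage genes bear on *Ptprc*, which these cells carry too. Of 10 Kupffer cell and macrophage genes 10 were lower in WT, 3 in *Gcn2*-/- and 9 in *Atf4*-/- livers, with medians of -0.82, 0.33 and -0.75, the same signs as *Ptprc*. *Marco*, a scavenger receptor, rose from 8.32 to 118 in *Gcn2*-/- and from 9.22 to 67.3 in *Atf4*-/- livers, and *Cd5l*, secreted by macrophages, fell from 91.6 to 31.3 in *Atf4*-/- livers. Their part in the values of *Ptprc* was not tested. Of the remaining lists, medians were -0.58, -0.74 and -0.89 for monocytes and dendritic cells, and -0.16, -0.64 and -0.65 for neutrophils, with *S100a9* called lower in *Gcn2*-/- livers. They were -0.20, -0.17 and 0.53 for platelets, of which 3 to 5 genes could be compared, and 0.19, -1.36 and -1.26 for 6 proliferation genes. No gene of the platelet, proliferation or monocyte and dendritic cell lists was called between ASNase and PBS, and their highest values over the groups were 3.30 for *Itga2b* in *Gcn2*-/- PBS, 4.27 for *Cdk1* in WT ASNase and 134 for *Lyz2* in *Gcn2*-/- ASNase. *Lyz2*, a lysozyme of myeloid cells, went against the median of its list in *Gcn2*-/- livers, with 54.1 under PBS, and it was called higher there than in WT after ASNase, 134 against 41.0. Of 6 thymus and spleen genes 2 or 3 could be compared, and *Spic*, a transcription factor of splenic and other macrophages, was called higher in *Gcn2*-/- livers.

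**Figure D4:**
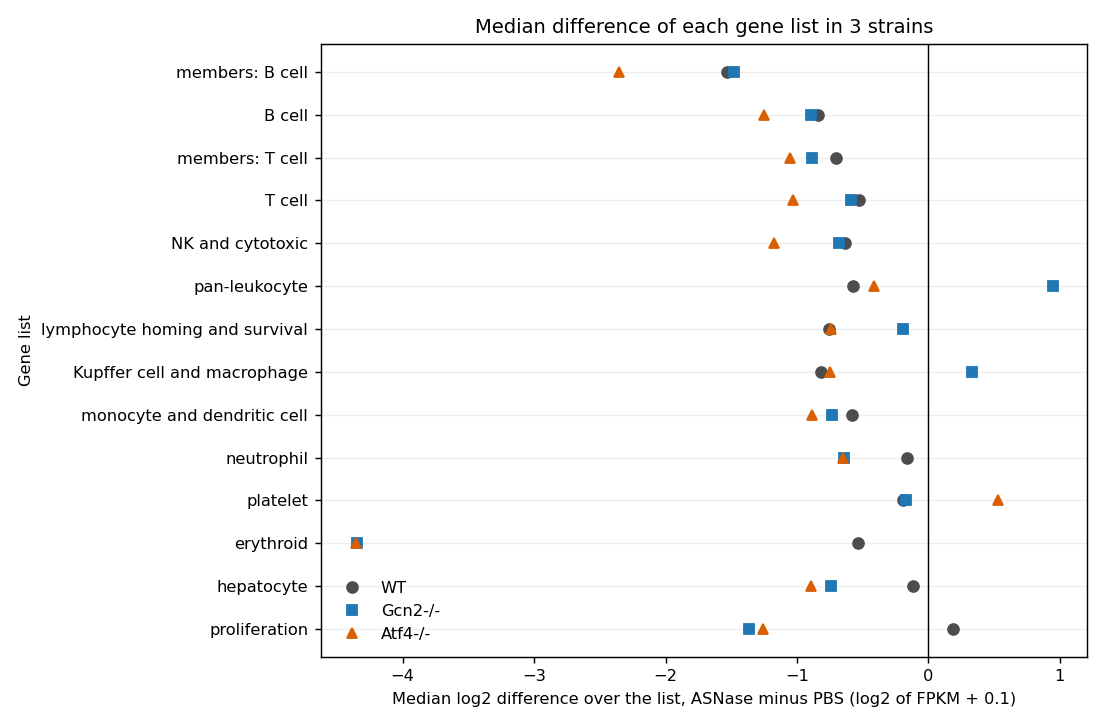
Median difference of log2(FPKM + 0.1), ASNase minus PBS (x axis), of each gene list (y axis) in the 3 strains. B cell, T cell and cytotoxic lists lie below 0 in every strain, the pan-leukocyte list at -0.57, 0.94 and -0.42 and the erythroid list at -0.53, -4.35 and -4.36.

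The patterns of the markers were much alike over the 6 groups. The mean standardised profile of the 3 B cell markers had a Pearson r of 0.978 with *Cd3d*, 0.938 with *Cd3e*, 0.914 with *Cd4*, 0.925 with *Cd8a*, 0.935 with *Nkg7* and 0.743 with *Ptprc*, over 6 group values that share libraries and depth. Among 4024 other genes, *Fzd8* was most like the B cell profile (r = 0.992), followed by *1700055N04Rik*, *BC028528*, *Hk3* and *Ly6c2*. *Fzd8*, a Wnt receptor, had 3.60 and 1.996 in WT, 3.09 and 1.76 in *Gcn2*-/- and 3.44 and 1.23 in *Atf4*-/- livers. The profile of *Cd3d*, *Cd3e* and *Cd8a* was followed most closely by *Spag4* (r = 0.997), *Ly6c2*, *Cxx1c*, *Gbp1* and *AC140374.1*. *Ly6c2*, a surface protein of monocytes and of some T cells, was on both lists, with 1.30 and 0.333 in WT, 0.577 and 0.0627 in *Gcn2*-/- and 0.970 and 0.0345 in *Atf4*-/- livers. *Ptprc* was followed by *Clec12a* (r = 0.986), a receptor of myeloid cells, then *7SK*, *Ppm1m*, *Cd5l* and *Ppp1r14a*.

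The deleted genes were read in the same table. *Eif2ak4*, the gene of GCN2, had an FPKM of 2.31 and 2.96 in *Gcn2*-/- groups and 3.04 and 2.39 in WT groups, and *Atf4* had 32.3 and 29.3 in *Atf4*-/- groups and 50.4 and 63.1 in WT groups. A value over the whole gene cannot show the loss of part of a transcript, so these values check neither label.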

How the data were processed

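Liver RNA of 18 mice in 6 groups of 3 was analysed. Groups were taken from the sample labels. Polyadenylated RNA had been sequenced, and TopHat and Bowtie were used by the authors for alignment (genome build mm10), Cufflinks and Cuffmerge for assembly of transcripts and Cuffdiff for the levels. The deposited table holds FPKM, 1 value per group of 3 libraries, with interval bounds in FPKM and a status. Of its values, 160 had a status other than OK, none of them of a marker. All columns were mapped, with 0 left outside. The study states the depth of its libraries, but the table carries no counts, so the number of reads behind a value is unknown and precision was read from the intervals: 35 of the 54 marker intervals reached 0.

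Groups were compared on log2(FPKM + 0.1) by fixed limits on FPKM, fold and interval overlap, over the whole table, in Python 3.11.15 with numpy 2.4.6 and pandas 2.3.3. A gene needed status OK and a value above 0 in both groups. The limits of 3 and 1.5 follow the methods of the study. The procedure was tested on simulated data, with large changes in genes above the level of the markers and with narrower intervals than most of them. That test does not bear on genes as low as the markers. Named were all 9 markers, from each list the genes called after ASNase (at most 4, or the highest gene where none was called), and the 5 genes most like each profile among genes over an FPKM of 1 in a group and with an SD of at least 0.5. A called gene of the companion lists is not reported here. The markers and lists were chosen with earlier results of these data known. Alternatives changed the pseudocount to 1, the FPKM minimum to 1 or none, the fold limit to 1, the interval condition, the scaling and the treatment of listed zeros. Nothing shows whether mice of a group shared litters or cages.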

Additional observations from a re-analysis of the deposited data

Results flagged for a closer look

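*Ptprc* was marked because its values moved in opposite directions in 2 strains, with a log2 difference after ASNase of -0.46 in WT and 0.20 in *Gcn2*-/- livers. The difference between these responses was 0.66 on the log2 scale, with an error of 1.39, and with 1 value per group it was not tested.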

How the results depend on the processing

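No marker was called in any comparison, and most alternatives left that count at 0. With the FPKM minimum of 3 only *Ptprc* was ever eligible. In *Atf4*-/- livers after ASNase, 1 marker (*Cd79b*) was called with an FPKM minimum of 1, with no minimum and by intervals alone. By intervals alone 4.63% of all genes were called there, and the shares with a lower minimum or none were not worked out. Further rules were chosen after seeing the data. The combined interval alone called 4 markers in *Atf4*-/- livers, beside 8.99% of all genes, and 0 elsewhere. The log2 difference over its error alone called 1 in *Gcn2*-/- and 6 in *Atf4*-/- livers, beside 5.85% and 9.71% of all genes. A log2 difference over 1 alone called 5 in WT, 4 in *Gcn2*-/- and 7 in *Atf4*-/- livers after ASNase. Of genes of the same level, 2.57%, 6.9% and 11.5% were under -1 there. The same rule called 1 in each knockout set against WT after ASNase, where no share was worked out. With a pseudocount of 1 the 63 differences of the markers kept their signs, but many shrank and none stayed under -1. *Cd79a* in WT went from -1.75 to -0.69 and *Nkg7* in *Gcn2*-/- livers from -1.68 to -0.46. Of the 63, 61 moved by less than their error, which is wide and so a weak measure of stability. The exceptions were *Cd79b* and *Ms4a1* in *Atf4*-/- livers after ASNase, which went from -2.76 to -0.98 and from -1.79 to -0.38. Median-ratio scaling of the groups moved all 63 by less than their error, and only the sign of *Cd4* in *Atf4*-/- against WT after ASNase changed. No paired analysis was possible because the table holds no value per library, and leaving out each replicate was not run for the same reason.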

Other observations

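Variable gene segments of the lymphocyte receptors, a set chosen after the values were seen, were read as well. Bulk liver does not show which cells they came from. The 91 immunoglobulin variable segments in the table summed to an FPKM of 12.5 in WT PBS and 7.79 in WT ASNase, 7.02 and 2.33 in the *Gcn2*-/- pair, and 16.5 and 0.498 in the *Atf4*-/- pair. The number listed above 0 was 37 and 31 in WT, 23 and 12 in *Gcn2*-/- and 45 and 6 in *Atf4*-/- livers. The 55 variable segments of the T cell receptor alpha and beta chains summed to 3.62 and 1.38 in WT, 2.17 and 0.523 in *Gcn2*-/- and 3.76 and 0.390 in *Atf4*-/- livers. These lower sums came from the 21 beta segments alone. The 34 alpha segments were at 0 in every PBS group and in *Gcn2*-/- ASNase. They summed to 0.0815 in WT ASNase and 0.0753 in *Atf4*-/- ASNase. In *Atf4*-/- livers the immunoglobulin sum differed most between treatments, in the same direction as *Cd79a*, *Cd79b* and *Ms4a1*. Segments share sequence, so the level of a single segment is uncertain, and these sums were not tested.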
